A study of Mus musculus with 6 samples.

Results

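Timd4-positive Kupffer cells are the resident macrophages of the liver sinusoid that carry the phosphatidylserine receptor Tim-4, encoded by Timd4. They were chosen by their own expression values: a cell was taken when Clec4f and Timd4 were above 0, at least 3 of the 6 genes C1qa, C1qb, C1qc, Vsig4, Cd5l and Csf1r were above 0, and Cd3e, Mzb1 and Siglech were all 0. Of the 11610 cells in the data, 2058 met this rule, which is 17.73%. The cells came from the livers of 3 wild-type and 3 SIRT7-/- mice of 5 to 6 months, one library per mouse, in which 3000 hepatocytes and 3000 nonparenchymal cells from a collagenase perfusion had been mixed. The SIRT7-/- (knockout) mouse is deficient in the histone deacetylase SIRT7 and was used by the study as a chow-fed model of spontaneous nonalcoholic steatohepatitis (NASH). The labels do not limit the deletion to macrophages, so an effect in these cells and an effect of the diseased liver on them cannot be told apart. Mice are named as in the labels, WT1 to WT3 and KO1 to KO3, and values are given in that order. The labels give each library its own mouse number and do not give litters or preparation days.

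Kupffer cells line the sinusoids and clear dying cells, aged erythrocytes, lipoproteins and bacteria from portal blood. Most of them are seeded before birth and renew themselves by division, and Timd4 is the gene commonly used to tell these long-lived cells from Kupffer cells that arose later from blood monocytes. Tim-4 binds phosphatidylserine on apoptotic cells, Clec4f is a galactose-binding lectin found on Kupffer cells, and Vsig4 is a complement receptor. In fatty liver disease, macrophages with high levels of lysosomal and lipid-handling genes are known as lipid-associated macrophages.

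The cells were checked against their markers. Of the 2058 cells, 99.81% had a C1qa UMI (unique molecular identifier, one counted RNA molecule), 99.81% had Cd5l, 92.57% had Vsig4 and 90.62% had Csf1r, and 1700 cells had all 6 genes. These genes were part of the rule, so their presence is a description. Marco, a scavenger receptor that the rule did not use, had a UMI in 23.96% of the cells. At a depth of 1000 UMIs a cell, Marco was seen in 14.3%, 50% and 17.0% of the cells in the wild-type mice and in 12.5%, 18.3% and 17.6% in knockout mice, against 0.0% of T cells in the same libraries. Marco, the one marker outside the rule, was thus seen in a minority of the cells in 5 of 6 mice at this depth and in no T cell.

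The limit of the rule lies within the range of single molecules. Timd4 was seen as 1 UMI in 875 cells, as 2 UMIs in 504 cells and as 3 or more in 679 cells, with a highest value of 18. Just outside the rule were 946 cells that met every other condition with Timd4 at 0, 127 cells with Timd4 and the Kupffer genes but without Clec4f, 1 cell with only 2 of the 6 genes, and 175 cells excluded by Cd3e, Mzb1 or Siglech. Just inside were 5 cells with exactly 3 of the 6 genes. The cells with Timd4 at 0 had a median of 1681 UMIs, those with 1 Timd4 UMI 2137, and those with 3 or more 3562. The part of depth in the line between both populations was not tested. Timd4 was much rarer in cells that should lack it. A Timd4 UMI was present in 13 of 1154 T cells (1.13%, exact 95% interval 0.601 to 1.92%, median 2275.5 UMIs) and in 16 of 2380 hepatocytes (0.672%, interval 0.385 to 1.09%, median 1427.5 UMIs), against 68.51% of the Kupffer cells of the gate (median 2261 UMIs). Timd4 lies on chromosome 11 (GRCm38, 46810800 to 46844332, plus strand) and Clec4f on chromosome 6 (83644542 to 83656187, minus strand).

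The mice gave very different numbers of cells. Members numbered 37, 23 and 110 in the wild-type mice and 1487, 349 and 52 in knockout mice. KO1 alone supplied 72.3% of them, and every comparison of genes below therefore uses 1 mean per mouse. Their median depth was 5592, 4242 and 2272.5 UMIs in wild-type mice and 2320, 3433 and 6590 UMIs in knockout mice, and their summed UMIs ran from 111354 in WT2 to 3959055 in KO1. Depth overlapped between the genotypes. Whole libraries ran from 2511947 UMIs in WT2 to 11069411 in KO1. Of the cell barcodes, 13 occurred in more than 1 library, and 4 members carried one of them.

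As a share of all cells, the members made up 2.98%, 2.47% and 10.1% in wild-type mice and 26.5%, 16.02% and 9.42% in knockout mice. The mean was 5.17 ± 4.24% (SD, n = 3) against 17.3 ± 8.62%, with WT3 above KO3, and an exact two-sided permutation test gave p = 0.2. The difference of 12.2 percentage points was 7.55 without KO1. Among the cells with a Ptprc UMI or in the gate, the shares were 11.2%, 8.88% and 15.5% against 41.5%, 21.7% and 29.1%. On that base the groups did not overlap, and the exact permutation test gave p = 0.1, the smallest that 3 mice against 3 allow. Cell yield from the perfusion and cell number in the liver cannot be told apart in these shares. KO3 also had only 552 cells in all, against 5609 in KO1.

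The share of Kupffer cells that carried Timd4 overlapped between the genotypes. When each cell was thinned to 1000 UMIs, which left out 200 shallower Kupffer cells of 3004, a Timd4 UMI was found in 37.2%, 39.4% and 42.6% of Kupffer cells in wild-type mice and in 43.5%, 46.3% and 36.7% in knockout mice. The groups overlapped, and the difference of 2.41 percentage points was within the spread (p = 0.5, exact permutation test). It ran from 0.348 without KO2 to 5.14 without KO3, and was -2.56 at 1500 UMIs a cell with all mice. Without thinning the shares were 80.4%, 63.9% and 64.0% against 66.7%, 76.4% and 81.3%. Only 43 and 33 Kupffer cells of WT1 and WT2 were left after thinning, and the exact 95% intervals of the thinned shares were 23.0 to 53.3% and 22.9 to 57.9%.

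**Figure D1:**
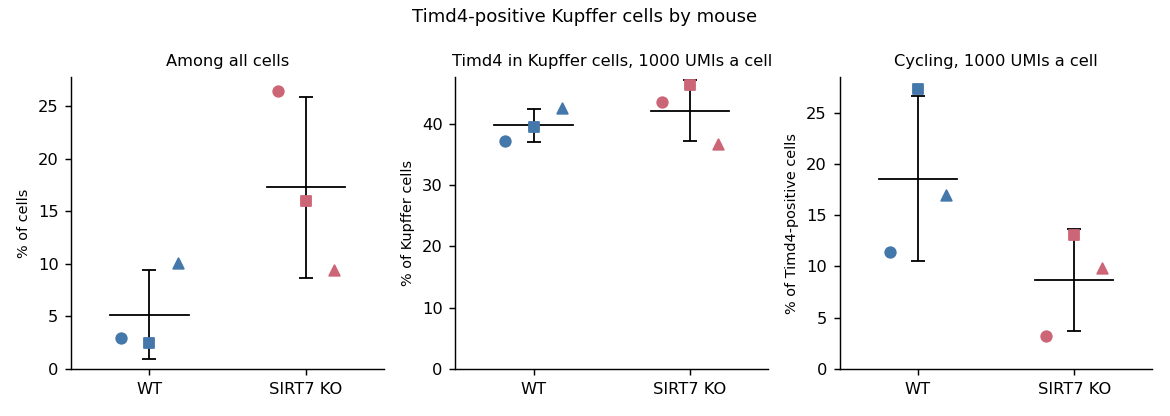
Timd4-positive Kupffer cells as a percentage of all cells (left), the percentage of Kupffer cells with a Timd4 UMI at 1000 UMIs a cell (middle), and the percentage of Timd4-positive cells with at least 2 cycling genes at 1000 UMIs a cell (right). Each point is a mouse (circle, square and triangle for replicates 1, 2 and 3), lines are means and bars are SDs; the groups overlap in all 3 panels.

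Sirt7 itself, on chromosome 11 (120618372 to 120625240, minus strand), went with the labels. Its mean level in the members was 0.662, 0.516 and 0.452 counts per 10000 UMIs (CP10K) in wild-type mice and 0.0853, 0.0662 and 0.0473 CP10K in knockout mice. These rest on 9, 7 and 11 UMIs against 30, 11 and 3. Every knockout mouse was below every wild-type mouse, and the knockout mean was 12.2% of the wild-type mean (p = 0.1, exact permutation test, the smallest possible). Some Sirt7 UMIs were still counted in the knockout libraries, and which part of the transcript they come from was not analysed here.

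Between the genotypes, 22 of 3255 genes passed an adjusted p of 0.05 in the members (limma on the log2 of the mouse means plus 0.5 CP10K, Benjamini-Hochberg over all genes tested). Of these, 8 rose (0.246% of the genes tested) and 14 fell (0.43%) in knockout mice. The genes that rose include the lysosomal protease Ctsd, the lysosomal lipase Lipa, the cytokine Il18, the lectin Clec4b1 and the chemokine Ccl5. The genes that fell include the eotaxin Ccl24, the MARCKS-like protein Marcksl1, the creatine pathway enzyme Gatm, Tmem176a and 10 genes with a higher mean level in hepatocytes of the same libraries than in the members. With 1 mouse left out, the number of calls was 10 without WT1, 15 without WT2, 10 without WT3, 61 without KO1, 16 without KO2 and 9 without KO3. Calls on BC018473, Car3, Ccl5, Clec4b1, Ctsd and Il18 held without any 1 mouse, and the other 16 were lost in at least 1 of these fits. When each mouse was centred on its median gene, the 23 calls split into 16 higher and 7 lower. Groups of mice that do not overlap are a looser measure, met by 7.34% of the genes tested with higher values and by 13.5% with lower values in every SIRT7-/- mouse, and the lists below are read against these shares.

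Lysosomal genes stood out by Ctsd and Lipa. Ctsd encodes cathepsin D, an aspartic protease of the lysosome. It measured 12.1, 10.9 and 10.97 CP10K in wild-type mice and 30.9, 26.9 and 24.4 CP10K in knockout mice. Between 111 and 301 UMIs per wild-type mouse and 903 and 11762 per knockout mouse stood behind these values. Every knockout mouse was above every wild-type mouse. The means were 11.3 ± 0.707 (SD, n = 3) and 27.4 ± 3.25 CP10K, a log2 difference of 1.23 (SE 0.164, adjusted p = 0.00337, limma). The share of members with a Ctsd UMI at 1000 UMIs a cell was 68.6%, 54.5% and 63.2% against 91.0%, 89.0% and 88.2%. T cells of the same libraries held Ctsd at 2.32, 3.94 and 2.59 against 2.34, 3.19 and 1.93 CP10K, with no such step between genotypes. The T cells numbered 188, 127 and 143 against 259, 419 and 18, so every KO3 value in T cells rests on 18 cells.

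Lipa, the acid lipase that frees cholesterol and fatty acids from lipoproteins taken up into the lysosome, measured 3.68, 2.29 and 2.56 CP10K in wild-type mice and 6.87, 6.03 and 6.99 CP10K in knockout mice. Again no mouse overlapped, and the log2 difference was 1.11 (SE 0.185, adjusted p = 0.0221, limma). The call on Lipa was lost without WT3 and without KO3, with log2 differences between 0.99 and 1.29 over the 6 fits that leave out 1 mouse. It was also lost at 1000 UMIs a cell (adjusted p = 0.215). Of the 35 lysosomal genes tested, these 2 rose and none fell, and a further 10 were higher and 3 lower in every knockout mouse without passing the test. That makes 12 of 35 without overlap on the higher side, against 7.34% of all genes. The list's median log2 difference was 0.27, against -0.06 over all genes tested. Cd63, a tetraspanin of late endosomes, measured 0.0576, 0.135 and 0.0831 against 1.67, 1.06 and 0.426 CP10K (adjusted p = 0.0621). Psap, which encodes the precursor of the saposins, measured 23.2, 28.6 and 28.6 against 30.7, 37.8 and 33.6 CP10K (adjusted p = 0.358). Not all members went this way. Lgmn, the asparaginyl endopeptidase, was at 34.7, 42.9 and 31.9 against 23.5, 29.4 and 26.3 CP10K, and Ctsb, cathepsin B, overlapped at 54.6, 37.3 and 43.3 against 51.2, 53.3 and 59.9 CP10K.

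The promoters of the lysosomal genes that rose are shown because lysosomal genes are known to share an E-box element bound by the MiT/TFE factors. The letters CACGTG (the same on both strands) were searched in the 250 bases before the first listed start of each gene in RefSeq (GRCm38.p6). They were found in 7 of the 31 promoters of the lysosome list that could be matched, in 1 of 16 promoters of the genes called between the genotypes, and in 6.05% of all 27025 promoters. Ctsd holds the letters at 2 places, starting 245 and 98 bases before the RefSeq start. In GENCODE M21 a longer Ctsd transcript covers 211 of these 250 bases, the nearer match included, so the 39 bases before both starts are printed (chr7:142388039-142388077, minus strand). Lipa (chr19:34527475-34527724, minus strand) holds them at 0 places. In the sequences, written 5′ to 3′ along the gene, capitals mark CACGTG.
Ctsd: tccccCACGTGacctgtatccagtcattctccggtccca
Lipa: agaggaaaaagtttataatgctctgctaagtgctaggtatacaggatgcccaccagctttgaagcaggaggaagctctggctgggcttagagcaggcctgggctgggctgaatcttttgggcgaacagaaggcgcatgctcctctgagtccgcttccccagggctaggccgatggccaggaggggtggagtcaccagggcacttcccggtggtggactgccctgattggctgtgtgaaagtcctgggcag
Among the 5 tested lysosomal genes with the letters, the log2 difference ran from -0.21 in Lamp1 to 1.23 in Ctsd, with a median of 0.14 against 0.28 in the 22 without them, a description with no test. A match is a description of the sequence only.

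No gene of lipid-associated macrophages passed the test. Of 12 tested among 20 listed, 7 were higher and 0 lower in every SIRT7-/- mouse, against 7.34% and 13.5% of all genes, and the median log2 difference was 0.59. The summed level of the 20 listed genes was 44.5, 48.9 and 57.7 CP10K in wild-type mice and 81.1, 84.2 and 80.7 CP10K in knockout mice, with Tyrobp the most abundant. Tyrobp, the signaling adaptor of Trem2 and other receptors, measured 15.8, 10.7 and 18.02 against 27.0, 23.8 and 26.1 CP10K (log2 difference 0.79, SE 0.198, adjusted p = 0.0873, limma). T cells held it at 0.311, 0.263 and 3.3 against 5.47, 3.96 and 1.82 CP10K. Cd52 measured 9.24, 6.71 and 9.80 against 16.2, 17.9 and 13.9 CP10K (adjusted p = 0.0586). Both genes separated the mice completely, although T cells carried more Cd52 than the members did. Lgals3, galectin-3, stood at 3.15, 3.50 and 3.84 against 4.37, 6.43 and 5.83 CP10K (adjusted p = 0.155), and the lipoprotein lipase Lpl overlapped at 6.02, 15.2 and 14.9 against 15.1, 16.9 and 18.7 CP10K. Mmp12, macrophage elastase, was all but absent from the wild-type members, with 1, 0 and 0 UMIs, and had 411, 399 and 9 UMIs in the knockout mice (0.991, 2.64 and 0.173 CP10K, adjusted p = 0.16). It passed in 2 of 20 alternatives, among them without KO3 (log2 difference 2.09, adjusted p = 0.0342, limma).

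Of the receptors for apoptotic cells, lipids and immune complexes, 22 were tested and none passed. Cd36, a scavenger receptor for oxidized lipoproteins and long-chain fatty acids, came nearest with 0.873, 0.944 and 1.96 against 5.80, 4.12 and 2.46 CP10K (log2 difference 1.38, SE 0.291, adjusted p = 0.0591, limma). Its groups did not overlap, but KO3 lay close to WT3. Cd36 passed in 3 of 22 alternatives, with the lowest adjusted p on means of the ln values (0.00232, limma). Fcer1g, the common Fc receptor gamma chain, measured 17.99, 16.1 and 20.7 against 28.7, 27.7 and 26.8 CP10K (adjusted p = 0.123), and in T cells 0.229, 0.399 and 2.4 against 4.41, 3.29 and 1.96 CP10K. The part of shared RNA in Tyrobp and Fcer1g was not tested. The phosphatidylserine-bridging receptor Axl stood at 6.80, 4.91 and 6.36 against 7.83, 8.003 and 8.77 CP10K (adjusted p = 0.259). Some had negative differences. Marco measured 6.497, 7.97 and 2.53 against 2.01, 2.50 and 2.31 CP10K (log2 difference -1.03, SE 0.323, adjusted p = 0.174), with WT3 level with the knockout mice. The Marco difference was -0.19 in members with hepatocyte markers under 100 CP10K, -0.42 with Timd4 at 2 or more UMIs, -0.34 on means of the ln values, -0.57 with voom and -1.48 without WT3, where it passed (adjusted p = 0.0159). Siglece, an inhibitory sialic acid receptor, stood at 3.61, 9.83 and 5.75 against 2.32, 3.04 and 2.67 CP10K (adjusted p = 0.123). The mannose receptor Mrc1 and Sirpa, which reads the signal against engulfment, overlapped between the genotypes. In all, 5 receptors were higher (22.7%) and 4 lower (18.2%) without overlap, against 7.34% and 13.5% of all genes. The list's median log2 difference was 0.32.

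Among the inflammatory genes, 1 rose and 1 fell. Il18, a cytokine of the inflammasome pathway on chromosome 9 (50554827 to 50581840), measured 0.156, 0.163 and 0.405 CP10K in wild-type mice and 1.59, 1.58 and 2.24 CP10K in knockout mice. These rest on 5, 3 and 11 UMIs against 621, 220 and 84. The lowest knockout mouse was more than any pair of wild-type mice together (log2 difference 1.64, SE 0.2, adjusted p = 0.00195, limma). The call was lost with voom on summed UMIs (log2 difference 2.41, adjusted p = 0.0993). At 1000 UMIs a cell, 0.0%, 0.0% and 0.943% of the members had an Il18 UMI against 13.4%, 15.9% and 13.7%, and 1.06% of T cells did. Ccl24, a chemokine for eosinophils that Kupffer cells make under type 2 cytokines, moved the opposite way on chromosome 5 (135569937 to 135573049). It measured 4.13, 5.29 and 4.38 against 1.93, 2.30 and 1.88 CP10K, a log2 difference of -1.01 (SE 0.170, adjusted p = 0.023, limma), and was near 0 in T cells at 0.05 CP10K. The call on Ccl24 was lost without WT1, without WT3 or without KO3, and at 1000 UMIs a cell (log2 difference -0.91, adjusted p = 0.302). The other 14 genes of this list did not pass, and its median log2 difference was -0.09. Ccl6 overlapped at 5.78, 6.76 and 10.2 against 8.87, 11.95 and 12.4 CP10K, Il1b overlapped at 4.25, 3.51 and 3.09 against 3.46, 3.98 and 1.53 CP10K, and Nfkbia, the inhibitor of NF-kB, stood at 3.48, 3.12 and 4.11 against 2.16, 2.70 and 2.44 CP10K (adjusted p = 0.222).

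Clec4b1, a C-type lectin of myeloid cells on chromosome 6 (123049962 to 123071555), measured 0.417, 0.193 and 0.397 CP10K in wild-type mice and 1.90, 1.79 and 1.79 CP10K in knockout mice. The 3 knockout mice agreed within 0.0629 CP10K (SD), and the log2 difference was 1.49 (SE 0.181, adjusted p = 0.00195, limma). The call was lost with voom on summed UMIs and at 1000 UMIs a cell (adjusted p = 0.0597 and 0.0904). Marcksl1, which binds actin and calmodulin, fell from 3.87, 6.91 and 4.84 to 2.04, 2.55 and 1.72 CP10K (log2 difference -1.11, adjusted p = 0.0407). Tmem176a, a membrane protein of myeloid cells, fell from 2.66, 1.89 and 2.65 to 0.794, 1.24 and 0.504 CP10K (log2 difference -1.13, adjusted p = 0.044). Gatm, the first enzyme of creatine synthesis, fell from 17.97, 24.6 and 14.6 to 6.74, 11.1 and 6.998 CP10K (log2 difference -1.16, adjusted p = 0.0468). In these 3 genes the groups were apart, but each call was lost when WT1, WT3 or KO3 was left out, and those on Gatm and Marcksl1 also without WT2. In T cells Gatm was at 0.495 CP10K and Marcksl1 at 0.253 CP10K.

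**Figure D2:**
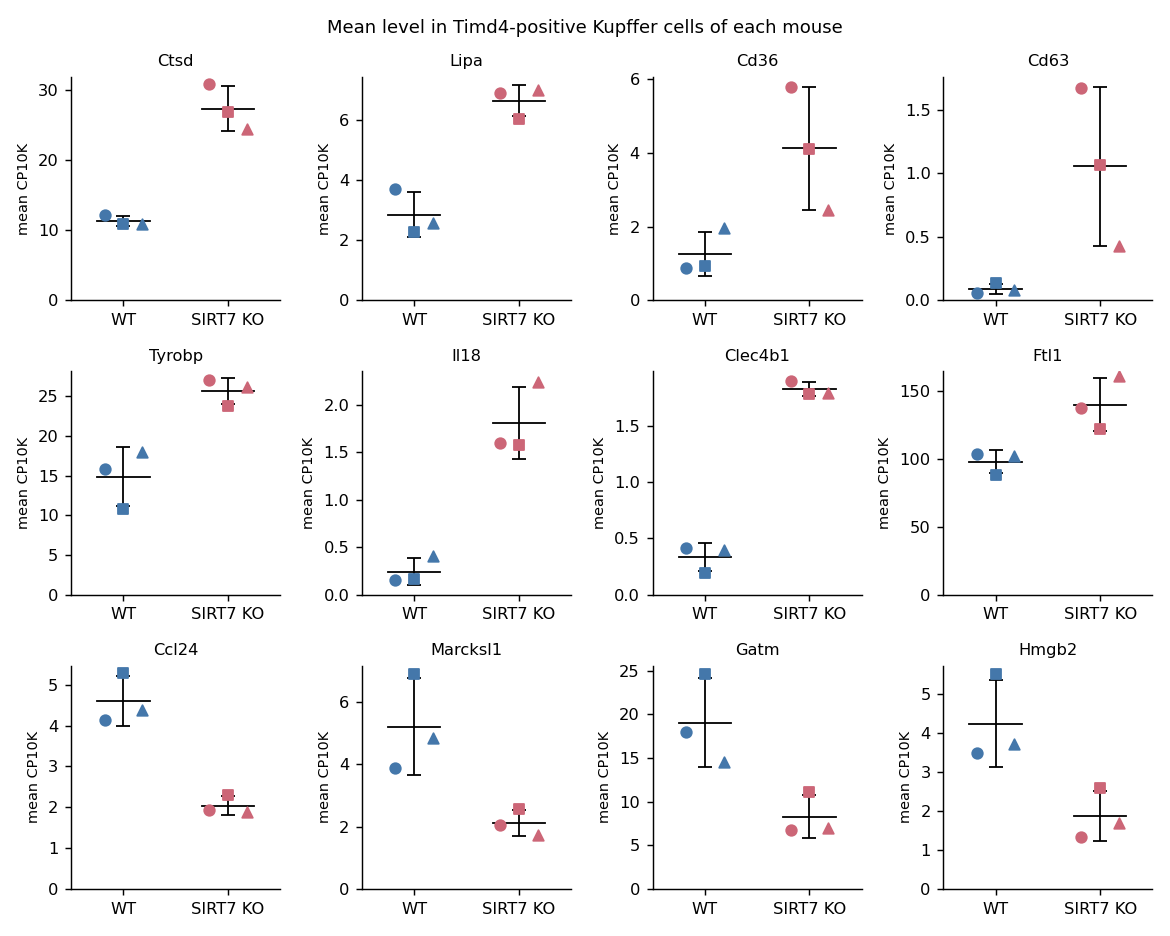
Mean level of 12 genes in the Timd4-positive Kupffer cells of each mouse, in CP10K (linear axes), with each point a mouse (circle, square and triangle for replicates 1, 2 and 3), lines for means and bars for SDs. In every panel the wild-type and SIRT7-/- mice do not overlap; Ctsd, Lipa, Il18, Clec4b1, Ccl24, Marcksl1 and Gatm passed an adjusted p of 0.05, and the other 5 genes did not.

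Ferritin was higher in every knockout mouse without passing the test. Kupffer cells take iron from engulfed erythrocytes, store it in ferritin and return it to the blood through ferroportin. Ftl1, the ferritin light chain, measured 103.9, 88.3 and 102.1 against 137.7, 122.0 and 161.2 CP10K (log2 difference 0.51, SE 0.170, adjusted p = 0.19, limma), and Fth1, the heavy chain, 46.1, 43.0 and 41.1 against 71.2, 49.7 and 63.8 CP10K (adjusted p = 0.222). Slc40a1, ferroportin, stood at 27.8, 25.9 and 27.4 against 33.2, 33.2 and 30.05 CP10K (adjusted p = 0.484). The heme-degrading Hmox1 overlapped at 10.7, 13.8 and 12.9 against 14.3, 11.8 and 9.54 CP10K. In T cells Ftl1 overlapped between the genotypes, at 43.2, 36.3 and 35.1 against 35.8, 22.1 and 31.1 CP10K. Of 18 iron and heme genes tested, none passed, and 10 had positive and 8 negative log2 differences. Without overlap, 6 were higher (33.3%) and 2 lower (11.1%), against 7.34% and 13.5% of all genes. The median was 0.12, between 0.04 without WT3 and 0.22 without WT2. Blvrb, biliverdin reductase B, and Ncoa4, the receptor that brings ferritin to the lysosome, were among the 6, with log2 differences of 0.52 (adjusted p = 0.194) and 0.52 (adjusted p = 0.229).

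Of 25 Kupffer identity genes tested, 18 overlapped between the genotypes, against 2575 of all 3255 genes tested. Overlap was thus no more common in this list than among all genes. None of the 25 passed the test. The list had 3 genes higher and 4 lower without overlap, against 7.34% and 13.5% of all genes. Its median log2 difference was -0.04, between -0.02 and 0.01 when 1 mouse was left out. The summed level of the list was 207.1, 176.6 and 193.4 against 209.1, 181.7 and 197.2 CP10K. Within it, Cdh5, VE-cadherin, measured 7.73, 7.43 and 6.00 against 4.25, 4.85 and 4.13 CP10K (log2 difference -0.62, SE 0.165, adjusted p = 0.11, limma), and Nr1h3, the oxysterol receptor LXR-alpha that maintains Kupffer identity, 7.09, 11.9 and 8.52 against 5.39, 7.02 and 5.56 CP10K (adjusted p = 0.221). Its partner Rxra measured 2.82, 2.49 and 2.46 against 1.80, 1.29 and 2.10 CP10K (adjusted p = 0.246). Lyz2 and Fcna overlapped between the genotypes. Timd4 and Clec4f, which chose the cells, were at 8.76, 6.97 and 9.73 against 8.43, 8.60 and 6.65 CP10K, and at 45.9, 34.3 and 40.2 against 30.6, 31.3 and 38.6 CP10K.

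Of the 14 genes that fell, 10 had a higher mean level in the hepatocytes of these libraries than in the members: Car3, Serpina1c, Sult2a1, Rida, Aldh1l1, Qdpr, Agxt, Hal, Gcdh and Sult2a8. Their hepatocyte level was 3.49 to 9.52 times that of the members, and 6 of the 10 were lower in every knockout mouse in T cells too, against 5.31% of the same tested genes there. In the hepatocytes themselves 5 of the 10 were, against 3.44%. The T cell comparison rests on 18 T cells in KO3, and for Serpina1c on 2.494 CP10K in KO1 against 2.509 CP10K in WT3. The 10 were picked by their calls in these libraries, so all tested genes are not a matched base for them. The part of hepatocyte RNA in these calls was not tested. The 20 hepatocyte markers summed to 170.9, 113.0 and 85.2 CP10K in wild-type mice and 88.6, 23.2 and 90.0 CP10K in knockout mice, with Apoa2 the most abundant and 0 of the 20 at 0. Car3, carbonic anhydrase 3, measured 4.62, 6.58 and 4.20 against 1.22, 0.336 and 0.710 CP10K (log2 difference -2.20, SE 0.258, adjusted p = 0.00195, limma). T cells of the same libraries held more of it, at 7.95, 8.57 and 6.501 against 3.08, 0.996 and 1.47 CP10K, and were lower in every knockout mouse as well. Sult2a1 was lower in both cell types, with 3.90, 4.61 and 2.05 against 0.756, 0.249 and 0.743 CP10K in the members and 8.41, 12.2 and 4.63 against 2.66, 0.834 and 0.0286 CP10K in T cells. Of 19 markers tested, 3 fell, none rose, and 7 were lower without overlap, against 13.5% of all genes. The median log2 difference was -1.03, or -0.49 without KO2. The 4 most abundant did not pass: Fabp1 (adjusted p = 0.66), Alb (0.764), Ttr (0.544) and Apoa2 (0.294). All 19 tested markers had negative log2 differences, and 8 had an unadjusted p under 0.05 (limma). The sums of WT3, KO1 and KO3 lay close together, so the summed level did not separate the genotypes. With only the members that had hepatocyte markers under 100 CP10K (10, 16 and 77 against 1115, 336 and 39 cells), 40 genes passed, among them 15 of the 22. This limit was chosen after seeing the data, and the sum it uses includes Car3, Serpina1c and Hal. It therefore does not show how much hepatocyte RNA is in the calls.

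Of the genes that rose, 4 of 8 lie on chromosome 11, the chromosome of Sirt7, which holds 8.78% of the genes tested. They are BC018473 at 3859 kb from Sirt7, Arhgdia at 36.8 kb, Vat1 at 19150 kb and Ccl5 at 37090 kb. BC018473 (116752167 to 116759373) had 0 UMIs in 595966 wild-type UMIs and 1264 in 5682613 SIRT7-/- UMIs of the members, at least 44.2-fold higher when set against a floor of 3 counts over the wild-type group, which covers counting error only (adjusted p = 6e-05, limma). T cells showed the same split, with 0.0 CP10K in each wild-type mouse and 1.11, 2.28 and 2.46 CP10K in knockout mice. Arhgdia measured 3.89, 4.33 and 3.45 against 6.75, 8.37 and 7.94 CP10K (log2 difference 0.90, SE 0.164, adjusted p = 0.0355, limma), and 1.89, 2.60 and 2.68 against 3.999, 6.32 and 6.17 CP10K in T cells. The call on Arhgdia was lost without WT1, WT3, KO2 or KO3. Both genes therefore differed in macrophages and T cells. Arhgdia was the only call among 18 genes tested within 2 Mb of Sirt7. Whether these differences come with the edited chromosome was not tested.

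Ccl5, the T cell and NK cell chemokine, rose from 0.315, 0.147 and 0.369 to 1.88, 1.67 and 1.297 CP10K (log2 difference 1.45, SE 0.191, adjusted p = 0.00337, limma). The call was lost on means of the ln values, with voom on summed UMIs and at 1000 UMIs a cell (adjusted p = 0.495, 0.322 and 0.228), with log2 differences of 0.22, 2.45 and 1.47. T cells carried it at 19.9, 24.96 and 13.8 against 30.1, 40.3 and 26.7 CP10K, and the 13 T and NK markers summed to 1.27, 0.147 and 2.38 against 3.91, 3.71 and 2.23 CP10K in the members. The part of T cell RNA in the Ccl5 difference was not tested. Vat1 rose from 0.259, 0.121 and 0.277 to 0.912, 0.985 and 0.847 CP10K (log2 difference 0.98, adjusted p = 0.0407), and this call was lost without WT1, WT3 or KO3.

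**Figure D3:**
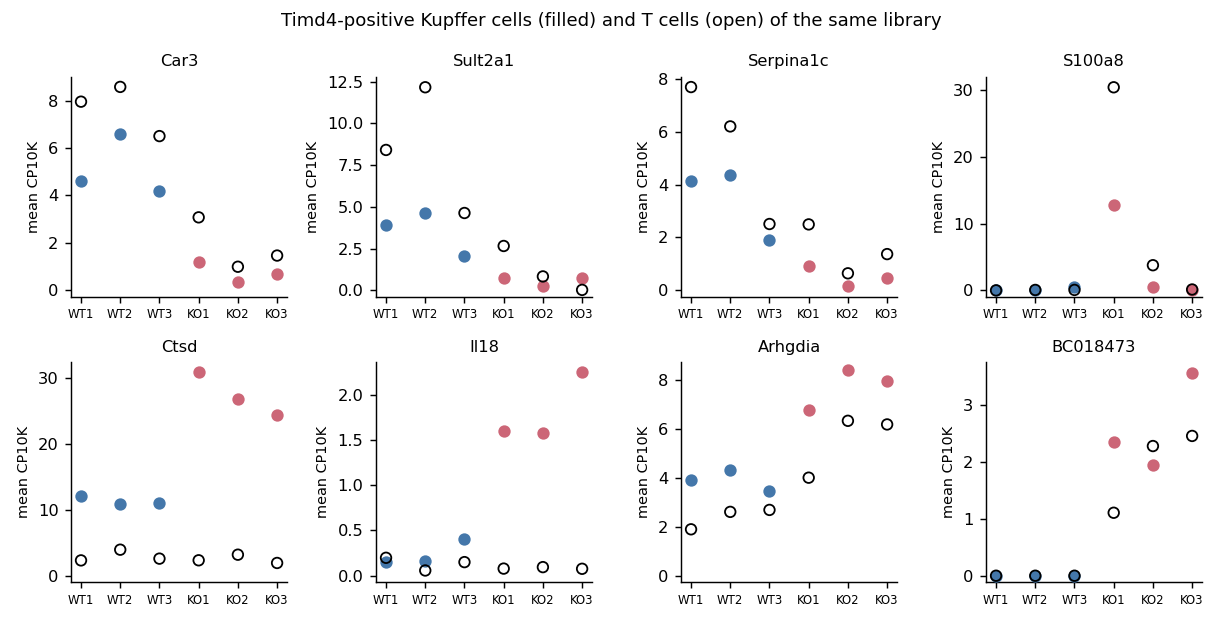
Mean level of 8 genes, in CP10K on linear axes, in Timd4-positive Kupffer cells (filled, blue wild-type and red SIRT7-/-) and in T cells of the same library (open). Car3, Sult2a1 and Serpina1c are higher in T cells than in the members, except Sult2a1 in KO3, and lower in knockout mice, S100a8 is high in KO1 in both, Ctsd and Il18 are higher in knockout members but not in knockout T cells, and Arhgdia and BC018473 are higher in both.

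No cycling gene passed the adjusted threshold. Of the 20 listed, 7 were tested, and all 7 had negative log2 differences and an unadjusted p under 0.05, and 5 of 7 were lower without overlap, against 13.5% of all genes. The median log2 difference was -0.93, and it ran from -1.15 to -0.75 when 1 mouse was left out and from -1.86 with voom to -0.26 on means of the ln values over all alternatives. Hmgb2, a chromatin protein of dividing cells, measured 3.48, 5.51 and 3.72 against 1.33, 2.58 and 1.70 CP10K (log2 difference -1.01, SE 0.227, adjusted p = 0.0621, limma). Stmn1, which destabilizes microtubules, stood at 1.88, 3.26 and 1.996 against 0.267, 1.04 and 1.12 CP10K (adjusted p = 0.0872), and Top2a, the DNA topoisomerase of dividing cells, at 0.621, 1.595 and 0.980 against 0.111, 0.568 and 0.264 CP10K (adjusted p = 0.125). KO1 was the lowest mouse in each of the 3. Hmgb2 passed in 3 of 22 alternatives, among them without KO2 (log2 difference -1.22, adjusted p = 0.0205, limma). Stmn1 and Top2a each passed in 2 of 21. T cells held Hmgb2 at 4.12, 7.87 and 5.08 against 11.4, 27.7 and 4.07 CP10K. Counted by cell at 1000 UMIs, 11.4%, 27.3% and 17.0% of the members in the wild-type mice and 3.22%, 13.04% and 9.80% in knockout mice had at least 2 of 20 cycling genes. The means were 18.6 ± 8.04% and 8.69 ± 5.01% (SD, n = 3), with KO2 above WT1, and the exact permutation test gave p = 0.2. Without thinning the shares were 37.8%, 47.8% and 22.7% against 6.66%, 28.4% and 36.5%. The wild-type shares rest on 4, 6 and 18 cells. At 1500 UMIs a cell the shares were 25.7%, 38.1% and 20.4% against 5.41%, 17.5% and 12%, and the groups did not overlap (p = 0.1, exact permutation test, the smallest possible). The difference of -9.87 percentage points at 1000 UMIs was -16.4 at 1500 UMIs, and -5.51 without WT2 at 1000 UMIs.

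Immediate-early and stress genes were also on the low side. Of 14 immediate-early genes tested, 13 had negative log2 differences, none passed, and the median was -0.46. Without overlap, 6 were lower and 0 higher, against 13.5% and 7.34% of all genes. Klf2, a factor that quiets macrophages, measured 7.08, 7.51 and 11.03 against 4.70, 4.66 and 4.38 CP10K (log2 difference -0.81, SE 0.185, adjusted p = 0.0688, limma), and Rhob, a small GTPase induced by stress, 3.79, 5.47 and 5.46 against 2.54, 2.82 and 2.33 CP10K (adjusted p = 0.0625). Dusp1 was at 14.4, 5.29 and 5.52 against 4.59, 5.02 and 1.89 CP10K, and Jund at 5.27, 7.42 and 5.91 against 3.89, 3.81 and 3.87 CP10K.

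No tested gene of the integrated stress response, the subject of the study in the liver, passed in these macrophages. Atf3, which the study reports as induced by this response, was listed with the immediate-early genes, and its value is not reported here. Of 29 listed genes of the response and of the endoplasmic reticulum, 17 were tested. Of these, 3 had positive and 14 negative log2 differences. Without overlap, 7 were lower and 0 higher, against 13.5% and 7.34% of all genes. The median log2 difference was -0.22, between -0.42 and -0.13 when 1 mouse was left out. Atf4, its central transcription factor, had a log2 difference of -0.49. Hsp90b1, a chaperone of the endoplasmic reticulum, measured 15.6, 20.6 and 10.5 against 6.16, 10.4 and 10.0 CP10K (log2 difference -0.76, SE 0.257, adjusted p = 0.199, limma), with KO2 and KO3 just under WT3. Xbp1, the factor spliced on unfolded protein stress, stood at 2.12, 4.50 and 2.96 against 1.62, 1.88 and 1.95 CP10K, and Ppp1r15a, which ends the response, at 0.891, 0.905 and 0.420 against 0.357, 0.343 and 0.392 CP10K. The chaperones Hspa5, Calr and Pdia3 overlapped, Hspa5 at 5.94, 7.001 and 4.24 against 3.52, 4.91 and 7.24 CP10K.

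Igf1, the growth factor of the somatotroph axis that is also made by macrophages, measured 8.58, 8.35 and 7.85 CP10K in wild-type mice and 7.195, 5.93 and 7.32 CP10K in knockout mice. Each knockout mouse was lower than each wild-type mouse, but the difference was small and did not pass (log2 difference -0.26, SE 0.160, adjusted p = 0.468, limma). It was -0.025 in members with hepatocyte markers under 100 CP10K and -0.007 at 1000 UMIs a cell. T cells, which are not a main source, held 2.11, 1.78 and 1.24 against 1.77, 0.472 and 1.41 CP10K. Igfbp4, an inhibitory binding protein of IGF-1, stood at 2.05, 1.15 and 1.57 against 0.690, 0.358 and 1.06 CP10K (adjusted p = 0.148), and Akt1 and Akt2 overlapped. These 4 were the members of the axis that reached the level for testing.

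Interferon-stimulated genes were high in 2 of the 3 knockout mice. The 26 genes summed to 45.0, 48.1 and 54.0 CP10K in wild-type mice and 42.6, 102.0 and 108.8 CP10K in knockout mice, so KO1 was below every wild-type mouse. All 18 tested had positive log2 differences (median 0.54), none passed, and only 2 were higher without overlap (11.1%, against 7.34% of all genes). Irf7, the master factor of type I interferon, shows the split with 2.57, 2.69 and 3.37 against 2.58, 8.19 and 11.9 CP10K. Bst2, tetherin, was apart in all mice at 2.85, 3.14 and 3.28 against 4.52, 9.31 and 10.6 CP10K (log2 difference 1.19, SE 0.258, adjusted p = 0.0621, limma). It passed in 5 of 22 alternatives, among them without KO1 (log2 difference 1.54, adjusted p = 0.00052, limma). Ifi27l2a measured 9.61, 11.4 and 15.3 against 7.85, 31.9 and 34.4 CP10K.

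The other lists gave 0 calls. Their counts without overlap are set against 7.34% higher and 13.5% lower of all genes tested. Of 9 MHC class II genes, 1 was lower without overlap, H2-Aa at 44.8, 43.7 and 59.5 against 37.0, 40.2 and 25.03 CP10K (adjusted p = 0.246), and Cd74, the invariant chain, overlapped at 109.9, 74.9 and 107.5 against 80.5, 83.8 and 63.1 CP10K. Of 81 ribosomal protein genes, 24 were higher and 4 lower without overlap, with a median log2 difference of 0.28, or 0.16 without WT2. Rps15a led with 13.6, 13.7 and 16.7 against 29.3, 26.9 and 21.7 CP10K (log2 difference 0.80, SE 0.177, adjusted p = 0.0621, limma), while Rps29, the most abundant, overlapped. Among 13 genes of cholesterol and lipid export, Apoe overlapped at 80.4, 33.1 and 58.0 against 145.7, 53.3 and 52.6 CP10K and the desaturase Scd1 was high in KO3 alone, at 5.56, 3.48 and 2.41 against 6.69, 4.02 and 28.9 CP10K. Of 11 genes of monocytes and recruited macrophages, the factor Cebpb was lower at 16.8, 15.1 and 12.3 against 7.14, 9.88 and 6.77 CP10K (adjusted p = 0.0621), the hyaluronan receptor Cd44 was lower at 5.64, 9.97 and 7.52 against 4.08, 5.63 and 3.39 CP10K (adjusted p = 0.153), and Clec12a was higher at 2.72, 2.42 and 3.02 against 4.39, 5.11 and 4.03 CP10K (adjusted p = 0.104). The list's median log2 difference was -0.12. Leaving out 1 mouse changed the sign of the median of the MHC class II, cholesterol, monocyte, complement, inflammatory, growth factor and Kupffer identity lists. Of 6 complement genes, C3 was lower without overlap, and Cfp, properdin, overlapped. Of 17 growth factor and niche genes, 4 were higher and 1 lower without overlap, and the macrophage factor Maf overlapped.

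**Figure D4:**
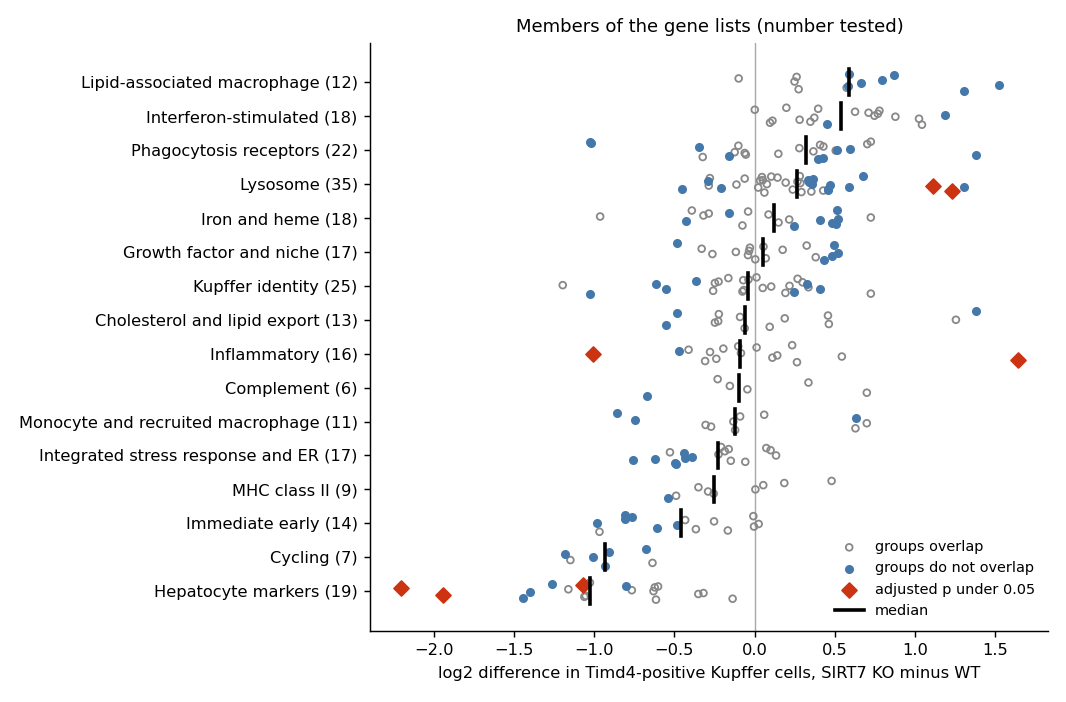
Log2 difference between the genotypes (SIRT7-/- minus wild-type) of each tested gene of 16 lists in Timd4-positive Kupffer cells, ordered by the list's median (black bar), with the number of genes tested in parentheses. Open circles are genes whose mice overlap, filled circles genes without overlap, and diamonds genes with an adjusted p under 0.05; the lipid-associated macrophage genes lie mostly to the right, and the cycling and hepatocyte genes to the left.

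Marker genes of other cell types varied by library in the members, and the source of their RNA was not tested. The 11 neutrophil markers summed to 0.497, 0.617 and 1.77 CP10K in wild-type mice and to 32.4, 1.68 and 0.743 CP10K in knockout mice, led by S100a8 at 12.7 CP10K in KO1. T cells of KO1 held S100a8 at 30.4 CP10K and those of KO2 at 3.77 CP10K. The erythroid markers, led by Hbb-bs, summed to 0.420, 0.128 and 0 against 5.50, 0.917 and 0.00919 CP10K, and the stellate markers, led by Dcn, to 0.157, 1.53 and 0.252 against 0.438, 0.664 and 4.51 CP10K. Sinusoidal endothelial markers, led by Stab2, summed to 1.14, 2.77 and 2.58 against 2.56, 3.21 and 3.25 CP10K. B and plasma cell markers, led by Igkc, summed to 0.590, 0.489 and 1.20 against 1.77, 1.32 and 0.603 CP10K. Dendritic markers, led by Bst2, summed to 3.08, 3.91 and 4.20 against 5.44, 10.4 and 11.9 CP10K. No marker of these lists that was in the table was at 0 over all members, apart from Cd3e, Mzb1 and Siglech, which the rule held at 0. The part of this RNA in the differences above was not tested.

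The nearest cells are the 946 Kupffer cells of the same gate with Timd4 at 0, numbering 9, 13 and 62 in wild-type mice and 742, 108 and 12 in knockout mice. With each mouse as its own pair, 1 of 3375 genes passed (0.0296%). Wfdc17, a secreted whey-acidic-protein family member of macrophages, was higher in the Timd4-positive cells of all 6 mice. It measured 68.0, 44.9 and 67.3 CP10K in wild-type mice and 54.4, 64.9 and 63.0 CP10K in knockout mice with Timd4, and 35.5, 32.7 and 46.8 against 44.5, 40.8 and 33.3 CP10K without it. The log2 difference was 0.63 (SE 0.104, adjusted p = 0.0339, limma), and Wfdc17 did not differ by genotype beyond the spread (60.1 ± 13.1 against 60.8 ± 5.56 CP10K, adjusted p = 0.944). The call was lost without WT1, WT2, WT3, KO2 or KO3, where 0 genes passed, and 1 passed without KO1. The population with Timd4 was deeper in every mouse, with 5592 against 1198 UMIs per cell in WT1 and 6590 against 5254.5 in KO3, and thinned to 1000 UMIs 0 genes passed (159 higher and 59 lower at an unadjusted p under 0.05), with Wfdc17 at a log2 difference of 0.55. Over all alternatives its log2 difference ran from 0.47 to 1.19.

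The genes nearest to the threshold after Wfdc17 did not pass. Folr2, the folate receptor beta, was higher with Timd4 in all 6 mice (log2 difference 0.69, adjusted p = 0.53), as were Il18bp, the decoy of IL-18 (0.70, adjusted p = 0.53), Fcna, ficolin A (0.67, adjusted p = 0.53), and Tmsb4x, an actin-binding peptide (0.30, adjusted p = 0.53). Of 25 identity genes tested, 6 were higher in all 6 mice and none lower, against 2.76% and 2.25% of all genes. Of the genes with negative log2 differences, none passed: Mmp12 (-1.44, with 0 UMIs on both sides in WT2), the transcription factor Tfe3 (-0.81), Vat1 (-0.93) and the hepatocyte genes Gnmt (-0.70) and Bhmt (-0.70) each had an adjusted p of 0.727. Hepatocyte markers were lower as a list (median -0.40, 3 of 19 lower in all mice), and their sum was 170.9 against 419.5 CP10K in WT1 but 23.2 against 17.6 CP10K in KO2.

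**Figure D5:**
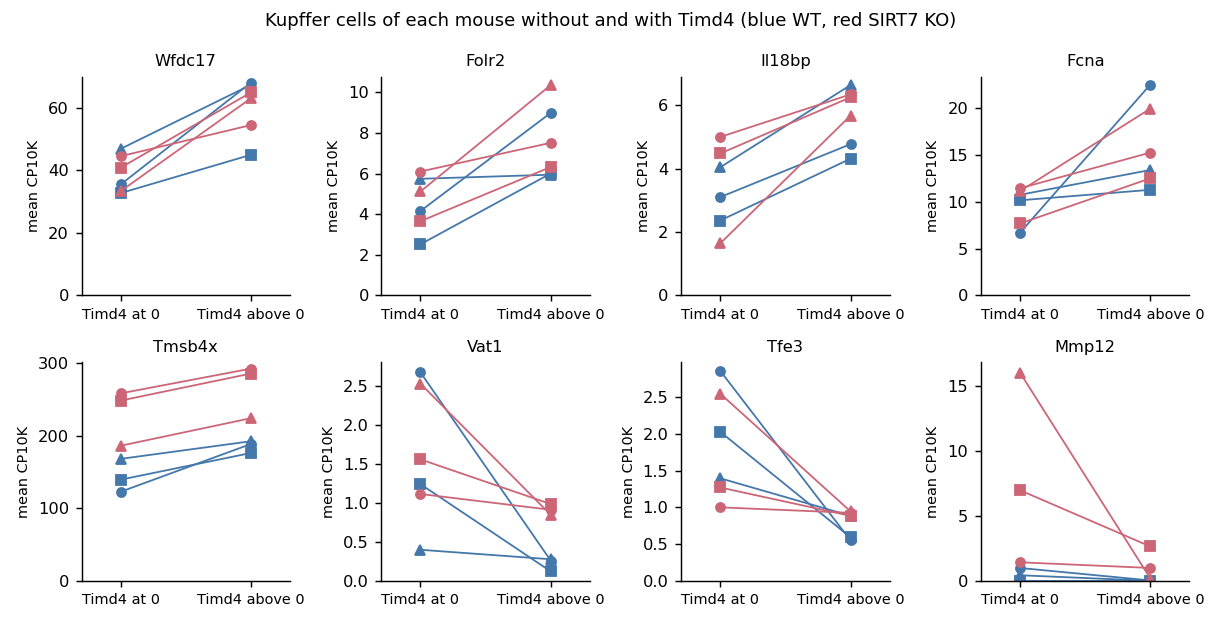
Mean level of 8 genes, in CP10K on linear axes, in Kupffer cells of each mouse with Timd4 at 0 (left) and above 0 (right), joined by a line per mouse (blue wild-type, red SIRT7-/-; circle, square and triangle for replicates 1, 2 and 3). Wfdc17, Folr2, Il18bp, Fcna and Tmsb4x go up in all 6 mice, and only Wfdc17 passed the test.

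The cells without Timd4 come from the same mice and libraries, and their genotype differences are given side by side. There 1 of 3527 genes passed, the adhesion molecule Vcam1, which rose in knockout mice (0.0284%; 0.515, 1.33 and 2.0 against 9.06, 5.34 and 8.92 CP10K, log2 difference 2.28, adjusted p = 0.0419, limma), and 6.12% of genes were higher and 8.11% lower without overlap. This count ran from 0 without WT2 to 58 without KO1 and 18 without KO2. Ctsd stood at 13.9, 4.38 and 10.5 against 31.0, 27.0 and 28.9 CP10K in these cells (log2 difference 1.68, adjusted p = 0.0521, limma), and Lipa at 1.502, 1.01 and 2.18 against 6.32, 5.54 and 7.28 CP10K (1.77, adjusted p = 0.0693). Both were apart between the genotypes in either population. Mmp12 was higher without Timd4, with 1.43, 6.97 and 16.02 CP10K in knockout mice. Lipid-associated macrophage genes were higher without overlap in 8 of 13 and lysosomal genes in 13 of 33, with median log2 differences of 0.98 and 0.55. Ccl24 overlapped between the genotypes in the cells without Timd4, at 0.257, 2.86 and 2.90 against 1.52, 2.70 and 1.06 CP10K. Its WT1 value rests on 9 cells, and Ccl24 did not pass the direct test of both populations given next.

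Whether the genotype difference itself depended on Timd4 was tested directly, as the difference of both differences within each mouse. Of 3375 genes, 0 passed (limma, adjusted p under 0.05), with 77 higher and 118 lower at an unadjusted p under 0.05 and 0 calls with summed UMIs and voom weights. The fit on mice with at least 20 cells in both populations made 31 calls, and it rests on 1 wild-type mouse, whose spread is assumed to be like that of the others. For Ctsd the difference of differences was -0.45 on the log2 scale, for Lipa -0.66, for Il18 0.38 and for Ccl24 -1.08, each with an adjusted p of at least 0.789. The genes nearest to the threshold belonged on the one side to the hepatocyte or liver-secreted genes Fabp1 (1.65), Hamp2 (1.6) and Apoc1 (1.35) and to Atp5g1 (1.29), and on the other to Sgk1 (-1.83), Rhob (-1.49), Capza1 (-1.66), Actn1 (-1.49) and Ctnna1 (-1.31). Fabp1 was at 76.2 and 69.0 CP10K in the cells without Timd4 of WT1 and WT2, which number 9 and 13; the part of this hepatocyte RNA was not tested. None of these 9 genes passed (adjusted p = 0.789).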

How the data were processed

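The authors aligned the reads of the 6 libraries with Cell Ranger 6.0.0 to mm10 (per the labels and the submitters' processing notes), removed cells of low gene number or high mitochondrial content, and scaled cells to a total of 10000 with a log transform. The deposited values are natural log, ln(CP10K + 1), in all 16623 gene columns. UMIs were worked back from them, and each of the 12961041 nonzero values came within 0.02 of an integer. Replicates are separate mice.

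Gene levels were averaged per mouse as CP10K. Genes averaging 0.5 CP10K or more were compared on log2(mean + 0.5) with limma 3.58.1 (R 4.3.3; trend and robust, two-sided, Benjamini-Hochberg, threshold 0.05), a scale that understates changes of low genes. The 11 genes of the gate were left out. Each mouse needed at least 5 cells. Shares were compared by exact two-sided permutation tests in 3 comparisons, none adjusted, and counting intervals are exact (Clopper-Pearson). T cells had at least 2 of Cd3d, Cd3e and Cd3g and no Clec4f or C1qa; hepatocytes had at least 500 CP10K of hepatocyte markers and no Clec4f, C1qa or Ptprc. Doublets were marked per mouse by scrublet scores at 0.8% per 1000 cells (321 cells, 75 of them members), since its automatic threshold marked only 46, and left out in an alternative. Positions are from GENCODE M21 (GRCm38). The limma fits were tested on simulated data.

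The members, the 25 gene lists and the tests were chosen with earlier results of these data known. Genes named are those of the gate, Sirt7, the called genes of each comparison (up to 12 per direction, filled to 5 by smallest p), and of each list the called, the 4 most abundant and up to 3 without overlap; Atf4 and Vcam1 were named after their values were seen. Some genes that meet the rule are not reported here. Same-numbered mice were not treated as pairs, since the labels do not pair them. The correlations of their deviations were 0.171, 0.144 and -0.0862, against -0.276 to 0.13 for mice of different numbers.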

Additional observations from a re-analysis of the deposited data

Results flagged for a closer look

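For 4 named genes, every wild-type mouse had a higher level in the Timd4-positive cells than in the Kupffer cells with Timd4 at 0 and every SIRT7-/- mouse a lower one. The difference of both genotype differences was tested with limma and passed for none of them. It was -1.49 on the log2 scale for Actn1, which crosslinks actin, -1.31 for Ctnna1, which links cadherins to actin, -0.66 for Psap and -1.48 for S100a8, each with an adjusted p of 0.789. Among the 3375 genes tested, 117 (3.47%) had such opposite signs in either direction.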

How the results depend on the processing

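The genotype calls depended on the setting. Against 22 genes, 10 passed with a pseudocount of 0.1 CP10K, 11 with a gene minimum of 0.2 CP10K, 7 with a minimum of 2 CP10K, 60 on means of the ln values, 4 with voom on summed UMIs, 7 with cells thinned to 1000 UMIs, 11 with at least 5 of 6 Kupffer genes and 40 with hepatocyte markers under 100 CP10K, a setting chosen after seeing the data. Leaving out 1 mouse gave 9 to 61. In the cells without Timd4 (1 call), 0 passed with a pseudocount of 0.1, 33 with a minimum of 0.2 CP10K, 24 when thinned and 69 with the replicate block. Ctsd kept its call in all 22 alternatives and BC018473 in all 21 that tested it, while Car3, Il18, Clec4b1, Ccl5, Arhgdia, Vat1, Gatm, Marcksl1 and Tmem176a lost theirs with voom and Lipa, Ccl24, Clec4b1, Ccl5, Gatm, Marcksl1 and Tmem176a at 1000 UMIs a cell.

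With the replicate number as a block, 182 genes passed for genotype and 2 for the difference of differences. The labels do not say whether mice of equal number share a litter or day, so these fits stand as alternatives. For the shares, the exact permutation test within numbers gave p = 0.5 for Timd4, 0.25 for cycling and 0.5 for all cells. There 0.25 is the smallest p possible.

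Between the populations (1 call), 0 genes passed with a pseudocount of 0.1, a minimum of 2 CP10K, at least 10 cells, thinning, 5 of 6 Kupffer genes, few hepatocyte markers or no mouse block, 7 with at least 20 cells, 3 on ln values and 11 with voom; leaving out 1 mouse gave 0 to 1. The stricter cell minimums, 5 of 6 genes and few hepatocyte markers each dropped at least 1 wild-type mouse. For the difference of differences (0 calls), at least 20 cells gave 31, and leaving out 1 mouse 0 to 1. The difference in the share with Timd4 was -2.56 percentage points at 1500 UMIs. No named call changed sign. Over all alternatives the list medians ran from 0.15 to 0.36 (lysosome), 0.39 to 0.76 (lipid-associated macrophage), 0.14 to 0.42 (phagocytosis receptors), -0.71 to -0.29 (immediate early) and -0.42 to -0.13 (integrated stress response).

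Few cells limit the wild-type values: WT1 and WT2 hold 37 and 23 members, and 9 and 13 cells without Timd4.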
